A study of Homo sapiens with 18 samples.

Results

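Keratins, cornified envelope proteins and desmosome proteins form the scaffold of squamous epithelium, and 47 genes of this kind, with 5 of their regulators counted among them, were followed in a squamous carcinoma line. The members were the rows of the count table whose Ensembl ID carries a listed symbol, 47 of 60683 gene IDs, and 42 of them had enough counts to be tested, of 18159 genes tested. Of the other 5 members, TGM3, an epidermal transglutaminase, had no count in any library, and KRT4, KRT23, SPRR2A and SPRR3 stayed at or below 0.479 CPM in every library. The line was Cal27, an established line from a squamous carcinoma of the tongue, so every value describes 1 cell line. Cells were kept for 24 hours in glucose-deprived medium, in high-glucose DMEM to which 2-DG (2-deoxyglucose, a sugar that enters glycolysis and stalls it) was added at 5 mM, or in plain high-glucose DMEM. Each medium was used with recombinant CGRP, the calcitonin gene-related peptide released by sensory neurons, at 10 nM and as control medium, with 3 independent repetitions in each of the 6 groups. These arms follow the series text, which reads the library code TG as CGRP and capTG as control, while the culture notes mention only various media called CM, so the identity of the arms rests on that text.

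The basal cells of a squamous epithelium are built on the keratin pair KRT5 and KRT14 and divide under the transcription factor TP63. As cells move outward they replace these keratins, tie themselves together with desmosomes, and make precursors such as involucrin and the small proline-rich proteins, which transglutaminases join into the cornified envelope. In the tongue and in squamous carcinoma the wound keratins KRT6, KRT16 and KRT17 are also made, and the S100 proteins of the epidermal gene cluster come with inflammation and differentiation.

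The start sites of 4 members that the results below turn on are shown, from 250 bases before to 50 bases after the start, with capitals marking the letters TGANTCA (the core of AP-1 sites, searched on both strands) and TATAAA (the TATA box, searched on both strands). SPRR1A and SPRR1B are close paralogs that were lower with CGRP in 2-DG medium, S100A9 was among the members lowered most by glucose deprivation, and DSG3 is the desmosomal cadherin that deprivation raised. The sequences are RefSeq's for GRCh38.p14, on the plus strand, at chr1:152983831-152984130 (SPRR1A), chr1:153030953-153031252 (SPRR1B), chr1:153357604-153357903 (S100A9) and chr18:31447491-31447790 (DSG3).
SPRR1A: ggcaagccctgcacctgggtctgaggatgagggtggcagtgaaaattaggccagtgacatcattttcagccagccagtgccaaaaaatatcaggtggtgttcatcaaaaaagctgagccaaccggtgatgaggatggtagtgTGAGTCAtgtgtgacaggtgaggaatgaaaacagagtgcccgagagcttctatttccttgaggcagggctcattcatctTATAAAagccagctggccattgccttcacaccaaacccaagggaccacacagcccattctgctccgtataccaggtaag
SPRR1B: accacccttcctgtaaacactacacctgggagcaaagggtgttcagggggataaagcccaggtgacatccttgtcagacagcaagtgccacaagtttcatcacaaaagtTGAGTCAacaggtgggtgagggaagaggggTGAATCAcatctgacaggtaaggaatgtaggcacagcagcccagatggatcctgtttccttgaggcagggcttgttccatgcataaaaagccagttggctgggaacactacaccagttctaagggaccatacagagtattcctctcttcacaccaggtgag
S100A9: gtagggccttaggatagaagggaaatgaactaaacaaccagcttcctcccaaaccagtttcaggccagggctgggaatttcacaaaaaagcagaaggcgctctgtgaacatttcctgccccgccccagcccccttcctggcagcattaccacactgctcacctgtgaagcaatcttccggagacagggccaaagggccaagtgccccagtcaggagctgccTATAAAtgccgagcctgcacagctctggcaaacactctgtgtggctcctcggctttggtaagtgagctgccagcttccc
DSG3: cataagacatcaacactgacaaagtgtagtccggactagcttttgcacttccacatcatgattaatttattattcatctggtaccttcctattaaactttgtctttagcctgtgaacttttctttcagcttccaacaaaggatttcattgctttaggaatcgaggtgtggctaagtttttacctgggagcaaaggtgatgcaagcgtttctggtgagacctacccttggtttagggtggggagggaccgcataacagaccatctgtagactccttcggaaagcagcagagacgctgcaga
The AP-1 letters began 108 bases before the start in SPRR1A and 141 and 111 bases before it in SPRR1B, and TATAAA began 29 bases before the start in SPRR1A and in S100A9. Neither motif was in the DSG3 window. Of the 26 members with an entry, 7 held TGANTCA (26.9%), against 7.71% of 35116 promoter windows, and 9 held TATAAA (34.6%), against 11.5%. Members were counted by gene, with a match in any window of the gene, and the background by window, so the shares are not of like units. A match of letters does not show a bound site.

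Total counts ran from 28038260 to 32661768 per library. On the first 2 principal components of all tested genes, the 6 deprived libraries lay apart from the other 12 on the first, and replicate 2 of the deprived CGRP group (-39) and replicate 2 of the 2-DG control group (-23.7) lay apart on the second, where all others lay between -4.19 and 9.1. In these 2 libraries genes with a long exon length (all annotated exons of a gene merged) were low, relative to their 2 group mates, and genes with a short one high. The difference of medians between the longest and the shortest of 3 equal classes of exon length was -0.33 and -0.22 on the log2 scale. It was -0.07 to 0.18 in the other libraries, where the values from 0.1 to 0.18 belonged to group mates of these 2 libraries. Members, given here with the length of their principal transcript, followed the trend. DSP, with a transcript of 9796 bases, stood at 423, 190 and 409 CPM in the deprived CGRP libraries and at 512, 323 and 485 CPM in the 2-DG control libraries, so the replicate 2 was the lowest of each group. S100A2, with a transcript of 998 bases, stood at 523, 1030 and 501 CPM and 738, 1380 and 806 CPM in the same groups, with replicate 2 the highest of each. Their part in the results was not tested beyond leaving them out, and the counts of members called are given with and without them. Squamous markers were present, 8 of 8 above 1 CPM, while PTPRC of leukocytes was at most 0.822, SOX10 of Schwann cells at most 0.0385 and PECAM1 of endothelium at most 0.257 CPM. The summed marker lists of fibroblasts, neurons, leukocytes and Schwann cells ran from 10.6 to 28.5, 12.4 to 32.9, 0.0344 to 4.71 and 0.823 to 2.47 CPM over the libraries.

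**Figure D1:**
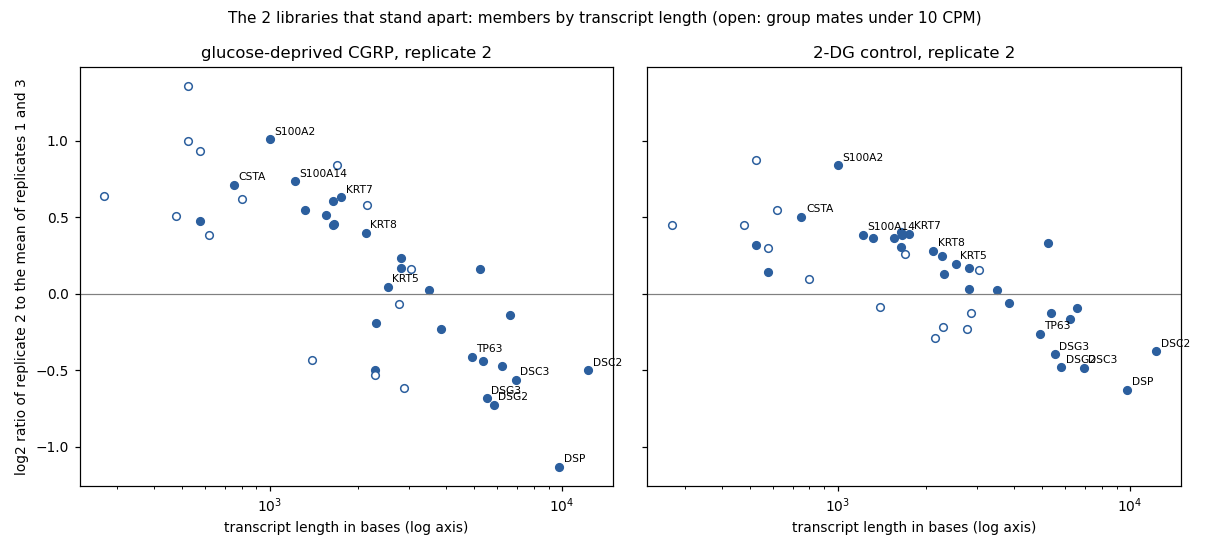
Each point is a tested member, by the length of its principal transcript in bases on a log axis and the log2 ratio of its CPM in replicate 2 to the mean of replicates 1 and 3, on the left for the deprived CGRP group and on the right for the 2-DG control group. Open points have group mates under 10 CPM. In both libraries S100A2 (998 bases) lies at the upper left and DSP (9796 bases) at the lower right.

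Deprivation of glucose moved more members than any other contrast with high glucose. With CGRP, 14 members rose and 20 fell against high glucose, 34 of 42 (81.0%), and 60.4% of all tested genes were called (31.9% up and 28.5% down). In control medium 13 rose and 21 fell, again 34 of 42 (81.0%), beside 60.6% of all genes (31.0% up and 29.6% down). The 2 arms share no library, and 29 members passed in the same direction in both, 12 up and 17 down and none in opposite directions. This is 85.3% of each arm's calls, beside 85.1% of the CGRP arm's calls and 84.8% of the control arm's calls over all genes. The median log2 fold change of the tested members was -0.34 with CGRP and -0.32 in control medium, against 0.04 and 0.02 for all tested genes. With the 2 libraries that stand apart left out, 38 members passed with CGRP (15 up and 23 down, beside 69.9% of all genes) and 40 in control medium (16 up and 24 down, beside 72.4%). These are bulk cultures, so fewer cells that make a transcript and less transcript per cell cannot be told apart. Changes are given as log2 fold changes ± SE with Benjamini-Hochberg adjusted p from edgeR's quasi-likelihood test over all genes, with 3 libraries a group and a threshold of 0.05. In the account of deprivation, "with CGRP" means deprived against high glucose when both media held CGRP.

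The basal keratins fell, and of the 8 keratins of basal and stress-responsive cells 1 rose and 7 fell with CGRP, while 1 rose and 6 fell in control medium. KRT5, the type II keratin of the basal layer, stood at 645, 669 and 651 CPM in the deprived CGRP libraries, against 2240, 2300 and 2230 CPM in the high-glucose CGRP libraries. In control medium it stood at 710, 645 and 660 CPM without glucose, against 2080, 2070 and 2110 CPM in high glucose. All 6 deprived libraries lay below all 6 high-glucose libraries, and KRT5 fell by 1.79 ± 0.06 with CGRP (adjusted p = 3.5e-13) and by 1.64 ± 0.06 without (adjusted p = 1.1e-12). Its partner KRT14 had 45.1, 60 and 42.6 CPM in deprived CGRP libraries, against 166, 180 and 179 CPM in high glucose with CGRP. The control arm gave 46.1, 42 and 46.1 CPM for KRT14 without glucose, against 189, 188 and 199 CPM in high glucose. The KRT14 groups did not overlap either, and it fell by 1.83 ± 0.12 and 2.10 ± 0.12 (adjusted p = 1.1e-09 and 2.3e-10) with CGRP and in control medium. KRT15, a keratin of basal cells that are not cycling fast, fell most of the 3. It stood at 36.7, 39.8 and 34.4 CPM in deprived CGRP libraries and 198, 209 and 215 CPM in high-glucose CGRP libraries, and at 32.5, 25.1 and 27.6 CPM without glucose and 164, 141 and 168 CPM with it in control medium. KRT15 fell by 2.49 ± 0.11 and by 2.47 ± 0.11, to less than the level of any high-glucose library in all 6 deprived ones.

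The wound keratins did not move as a block. KRT6B fell by 2.39 ± 0.13 with CGRP (adjusted p = 1.2e-10), with 11.5, 8.36 and 12.1 CPM in deprived libraries, against 55.4, 55.7 and 56.5 CPM in high glucose. It fell by 1.95 ± 0.13 in control medium, where it had 16.7, 12 and 15.1 CPM without glucose, against 57.9, 50.9 and 60.4 CPM. KRT6A, its far more abundant paralog, fell less, by 0.61 ± 0.06 with CGRP (123, 108 and 124 CPM, against 177, 186 and 178 CPM) and by 0.21 ± 0.06 without (174, 162 and 169 CPM, against 190, 200 and 196 CPM). The 3 KRT6 genes are near copies whose reads the counting could have split (KRT14, KRT16 and KRT17 also have close copies), and their summed counts fell by 0.88 ± 0.06 with CGRP and 0.46 ± 0.06 in control medium. KRT6C, the rarest of them, fell by 1.81 ± 0.19 and 1.28 ± 0.18. KRT17 went the other way and rose by 0.59 ± 0.12 with CGRP and 0.71 ± 0.12 in control medium (adjusted p = 0.00045 and 7.3e-05). Its levels were 899, 1240 and 916 CPM in deprived CGRP libraries, against 686, 658 and 687 CPM, and 1150, 1100 and 1160 CPM in deprived control libraries, against 706, 645 and 728 CPM in high glucose. KRT16, which pairs with KRT6, fell with CGRP by 0.45 ± 0.15 (adjusted p = 0.019), a call lost when replicate 1 or 3 of the deprived CGRP group or replicate 3 of the high-glucose CGRP group was left out (adjusted p 0.066 to 0.085), and differed by -0.25 ± 0.15 in control medium (adjusted p = 0.17, and 0.033 without the 2 libraries that stand apart). Per kilobase of transcript, KRT5 was the highest of the 8 keratins of basal and stress-responsive cells in high glucose, at 892 CPM per kb with CGRP and 824 in control medium. KRT17 was the highest of them without glucose, at 616 and 688 CPM per kb, against 259 and 265 for KRT5.

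**Figure D2:**
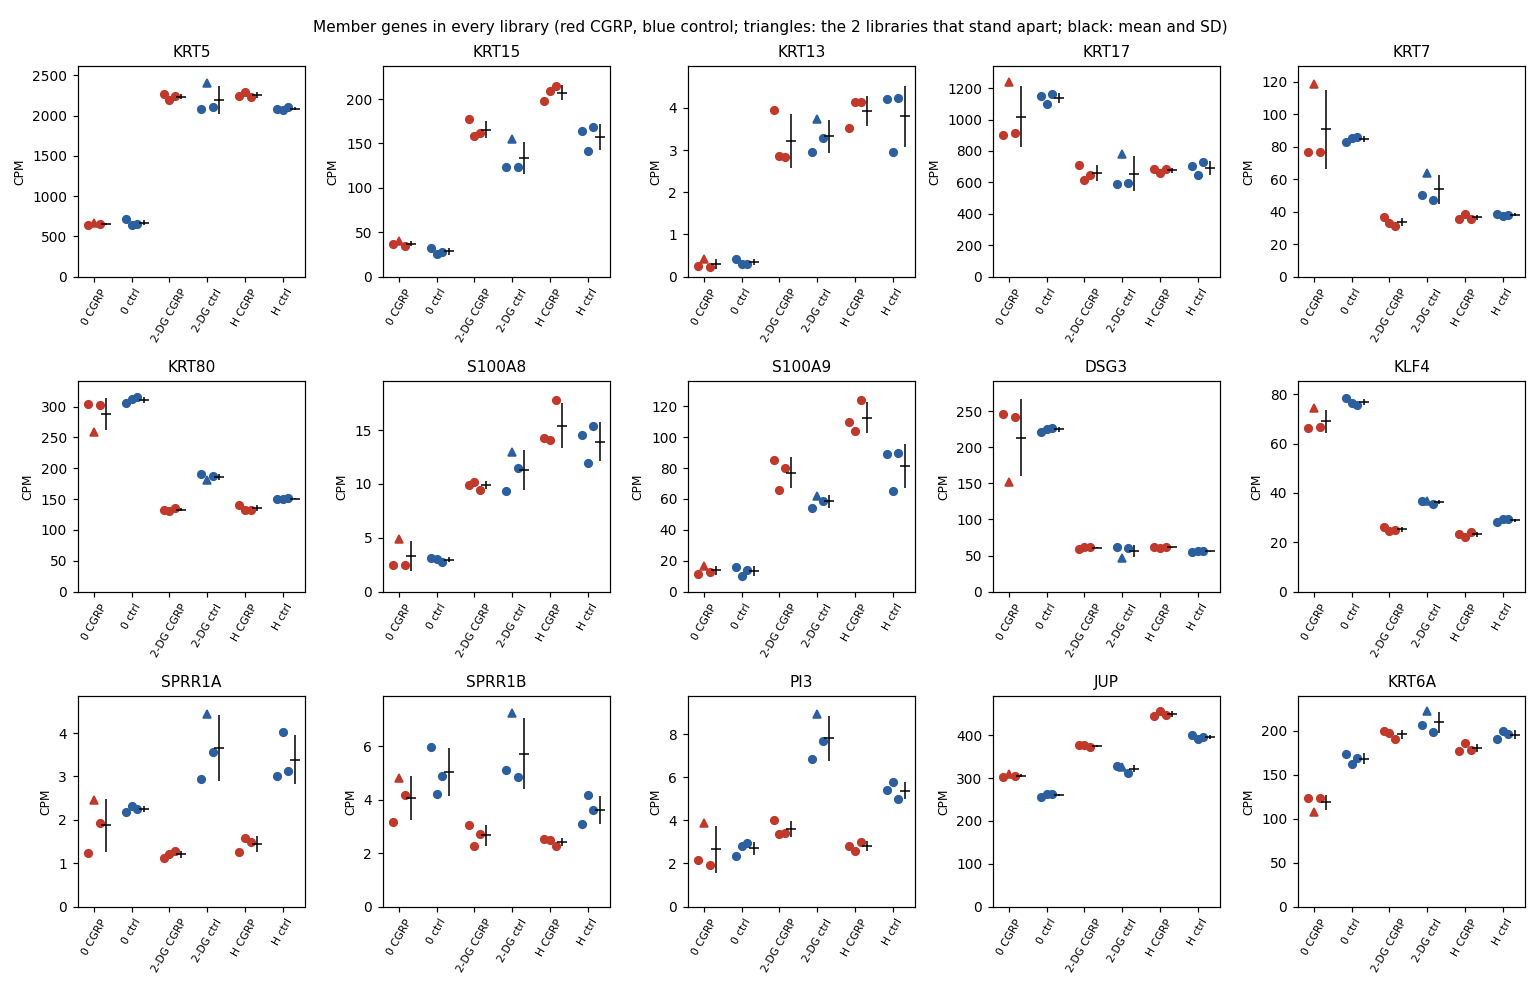
Each panel shows 1 member's CPM (linear axis from 0) in all 18 libraries, by group from left to right: glucose-deprived (0), 2-DG and high glucose (H), each with CGRP (red) left of control (blue). Triangles are the 2 libraries that stand apart and black bars are the mean and SD of 3 libraries. KRT5, KRT15, KRT13, S100A8 and S100A9 are low in all 6 deprived libraries, KRT7, KRT80, DSG3 and KLF4 are high there, and SPRR1A and PI3 are low in the CGRP libraries of high-glucose and 2-DG medium.

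The keratins listed for simple and ductal epithelia include KRT80, which is not confined to them. Of the 5 tested in this group 4 rose with CGRP and 3 in control medium, and 1 fell in each arm. KRT7, a keratin of glands and ducts, stood at 77, 119 and 76.8 CPM in deprived CGRP libraries, against 35.5, 38.3 and 35.8 CPM in high glucose. In control medium it stood at 82.8, 85.5 and 86.3 CPM without glucose, against 38.9, 37.1 and 38.1 CPM. The lowest deprived library was above the highest high-glucose library, and KRT7 rose by 1.32 ± 0.14 and 1.16 ± 0.14 (adjusted p = 5.6e-07 with CGRP and 2.5e-06 without). KRT80, a type II keratin found in many epithelia, had 305, 259 and 302 CPM in deprived CGRP libraries and 141, 133 and 132 CPM in high-glucose CGRP libraries. In control medium KRT80 had 306, 312 and 315 CPM without glucose, against 151, 150 and 152 CPM. It rose by 1.09 ± 0.06 and 1.04 ± 0.06, again with no overlap. KRT19 alone of this group fell, by 2.85 ± 0.26 with CGRP and 2.16 ± 0.28 without, at a low level of 0.177 to 0.552 CPM in deprived and 1.45 to 2.63 CPM in high-glucose libraries. Its counts in the deprived CGRP group were 5, 7 and 17, and without replicate 3 of that group KRT19 fell by 3.48 with CGRP. KRT8, the most abundant of them per kilobase, stood at 829, 1100 and 843 CPM in deprived CGRP libraries, against 747, 786 and 755 CPM in high glucose, and rose by 0.28 ± 0.09 (adjusted p = 0.017). That call was lost without replicate 2 of the deprived CGRP group (adjusted p = 0.16) or replicate 1 of the high-glucose CGRP group (0.054). Scaling by total counts (0.12) and a fit of the groups compared alone (0.15) ended it as well. In control medium KRT8 had 788, 779 and 801 CPM without glucose, against 740, 733 and 743 CPM, a difference of 0.10 ± 0.09 (adjusted p = 0.39, and 0.017 at 0.07 without the 2 libraries that stand apart). KRT18, its partner, rose by 0.47 ± 0.12 with CGRP and by 0.29 ± 0.12 in control medium, where the call was lost without any 1 of 13 libraries, the 6 of the 2 groups compared, all 6 CGRP libraries of 2-DG and high-glucose medium and replicate 3 of the deprived CGRP group (adjusted p 0.051 to 0.13). Scaling by total counts (0.25) or by DESeq2's size factors (0.065), no filter on low counts (0.1), a stricter filter (0.097) and DESeq2 (0.058) each ended that call too. KRT8 and KRT18 overlap each other on opposite strands in GENCODE 29, as do KRT7 and KRT7-AS, and the strand setting of the counts is not given in the sources used here, so their values are uncertain.

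KRT13, the keratin of the outer layers of non-cornified mucosa and the only tested member of its pair, showed the largest fall of the tested members in both arms. It stood at 0.247, 0.424 and 0.227 CPM in deprived CGRP libraries, against 3.52, 4.13 and 4.13 CPM in high glucose with CGRP. The control arm gave 0.428, 0.31 and 0.306 CPM without glucose, against 4.2, 2.95 and 4.24 CPM. The 2 sets of libraries did not overlap in either arm, and KRT13 fell by 3.72 ± 0.25 with CGRP (adjusted p = 1.6e-09) and by 3.43 ± 0.24 in control medium (adjusted p = 2.9e-09), which is 13.2-fold and 10.8-fold lower. KRT4, the partner of KRT13, had 0 counts in the deprived CGRP group, where 3 counts over the group would be 0.0353 CPM, and 7 counts in the high-glucose CGRP group.

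Of the 5 S100 proteins 3 fell with CGRP and 4 fell in control medium, and 0 rose in either arm. S100A9, which with S100A8 forms the antimicrobial complex calprotectin, stood at 11.4, 16.8 and 12.8 CPM in deprived CGRP libraries, against 110, 104 and 124 CPM in high glucose. In control medium it stood at 16.1, 10.2 and 13.7 CPM without glucose, against 89.3, 64.9 and 90 CPM. S100A9 fell by 3.04 ± 0.18 and 2.61 ± 0.17 (adjusted p = 2.9e-10 and 1.8e-09), with every deprived library far below every high-glucose one. S100A8 had 2.51, 4.93 and 2.44 CPM in deprived CGRP libraries, against 14.3, 14.1 and 17.8 CPM, and 3.16, 3.03 and 2.72 CPM in deprived control libraries, against 14.5, 11.9 and 15.4 CPM. It fell by 2.24 ± 0.20 and 2.23 ± 0.20. S100A7, or psoriasin, stood at 1.62, 2 and 1.2 CPM in deprived CGRP libraries, against 9.64, 8.25 and 10.6 CPM, and at 1.88, 1.69 and 1.36 CPM in deprived control libraries, against 7.94, 6.22 and 8.84 CPM. It fell by 2.57 ± 0.20 and 2.22 ± 0.20, and neither S100A8 nor S100A7 had an overlap between deprived and high-glucose libraries. S100A2, a p63-linked protein of basal cells and the most abundant of the 5, had 523, 1030 and 501 CPM in deprived CGRP libraries, against 761, 822 and 844 CPM, and differed by -0.24 ± 0.23 (adjusted p = 0.39). In control medium it had 468, 452 and 434 CPM without glucose, against 731, 689 and 739 CPM, and fell by 0.67 ± 0.24 (adjusted p = 0.021), which was lost without replicate 3 of the deprived control (0.053) or of the high-glucose control (0.051). Without the 2 libraries that stand apart, S100A2 fell in the CGRP arm as well, by 0.69 on the log2 scale. S100A14 did not pass in either arm with all libraries, and fell by 0.22 in control medium without those 2.

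Envelope precursors and their crosslinkers split, with 4 of 10 tested up and 2 down with CGRP, and 4 up and 4 down in control medium. SPRR2D, a small proline-rich protein, had the largest rise at very low counts, with 39, 58 and 47 counts in the deprived CGRP libraries, against 0, 2 and 6 counts in high glucose, and 54, 54 and 62 counts in deprived control libraries, against 9, 2 and 3 counts. It rose by 4.29 ± 0.48 and 3.60 ± 0.42, and the summed SPRR2 genes, which are near copies, rose by 2.74 ± 0.32 with CGRP and 2.02 ± 0.28 in control medium. A single high-glucose library also moved each fold by over 1.5 times: on the log2 scale the rise of SPRR2D was 5.60 with CGRP without replicate 3 of the high-glucose CGRP group, and 4.48 in control medium without replicate 1 of the high-glucose control. SPRR1B rose by 0.74 ± 0.20 with CGRP (adjusted p = 0.0044) and by 0.47 ± 0.19 without (adjusted p = 0.037), while SPRR1A fell by 0.60 ± 0.20 in control medium (adjusted p = 0.015). These 2 genes are paralogs, and their summed counts rose with CGRP by 0.61 ± 0.18 (adjusted p = 0.0089) and differed by 0.05 ± 0.17 in control medium (adjusted p = 0.81). In control medium the SPRR1A call was also lost without replicate 2 of the high-glucose control (0.085), and the SPRR1B call without replicate 3 of the deprived CGRP group, replicate 1 or 3 of the deprived control or replicate 1 or 3 of the high-glucose control (0.056 to 0.22). Scaling by total counts (0.13), no filter on low counts (0.052) and a stricter filter (0.061) ended that SPRR1B call too. Involucrin, the product of IVL, fell by 2.55 ± 0.50 with CGRP (adjusted p = 0.00032) on 2, 2 and 1 counts in deprived libraries, against 15, 11 and 9 counts in high glucose, and differed by -0.31 ± 0.36 without CGRP (adjusted p = 0.48).

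TGM1, the transglutaminase that joins these precursors, rose in control medium by 0.71 ± 0.14 (adjusted p = 0.00039), with 3.62, 2.89 and 3.64 CPM without glucose, against 1.9, 1.9 and 2.39 CPM. With CGRP it stood at 3.25, 3.31 and 3.7 CPM without glucose, against 3.4, 2.66 and 2.93 CPM, and the difference of 0.19 ± 0.14 did not pass (adjusted p = 0.23). The 2 plakins that anchor the envelope went opposite ways. PPL rose by 0.50 ± 0.10 with CGRP (349, 251 and 349 CPM, against 238, 217 and 215 CPM) and by 0.34 ± 0.10 in control medium (247, 257 and 254 CPM, against 199, 204 and 195 CPM), where scaling by total counts in place of TMM ended the call (adjusted p = 0.17). EVPL fell by 0.65 ± 0.06 and 0.54 ± 0.06, and kept to 28.8 to 33 CPM in deprived libraries and 44.6 to 50.1 CPM in high-glucose ones. PI3, or elafin, an elastase inhibitor that is itself crosslinked into the envelope, fell in control medium by 1.00 ± 0.19 (adjusted p = 0.00028), with 2.34, 2.79 and 2.96 CPM without glucose, against 5.4, 5.78 and 4.98 CPM. With CGRP it had 2.15, 3.89 and 1.92 CPM, against 2.81, 2.56 and 3.02 CPM, and the groups overlapped, while without the 2 libraries that stand apart PI3 fell by 0.49. CNFN fell in control medium by 1.14 ± 0.35, a call that ended without replicate 1 of the deprived control (adjusted p = 0.055). CSTA, a protease inhibitor of the envelope, rose with CGRP by 0.51 ± 0.16, a call that ended without the deprived CGRP replicate 2 (adjusted p = 0.13).

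Of the 8 desmosome genes 3 rose and 4 fell with CGRP, 3 rose and 3 fell in control medium, and DSG3 had the largest change. DSG3, the desmosomal cadherin attacked in pemphigus vulgaris, stood at 246, 152 and 242 CPM in deprived CGRP libraries, against 61.7, 60.3 and 62.1 CPM in high glucose. In control medium it stood at 221, 226 and 227 CPM without glucose, against 55.2, 56.3 and 56.6 CPM. Even the low library of the deprived CGRP group was above every high-glucose library, and DSG3 rose by 1.80 ± 0.14 with CGRP and 2.00 ± 0.14 without, 3.47-fold and 4.01-fold (adjusted p = 1.1e-08 and 3.1e-09). Its neighbour in type, DSG2, differed by 0.06 ± 0.15 and 0.12 ± 0.15 and did not pass (adjusted p = 0.74 and 0.5), although without the 2 libraries that stand apart it rose by 0.24 and 0.10. The desmocollins moved apart: DSC2 rose by 0.35 ± 0.12 with CGRP and 0.58 ± 0.12 without, and DSC3 fell by 0.69 ± 0.13 and 0.34 ± 0.13. Without single libraries, the DSC2 call with CGRP was lost (replicates 1 and 3 of the deprived CGRP group and 2 of the high-glucose CGRP group, adjusted p 0.06 to 0.14), and so was the DSC3 call in control medium (replicates 1 and 3 of the deprived control and all 3 of the high-glucose control, 0.055 to 0.093). Scaling by total counts also ended the DSC2 call with CGRP (0.18). JUP, or plakoglobin, which links the cadherins to desmoplakin, fell in both arms, by 0.56 ± 0.04 with CGRP (303, 310 and 306 CPM, against 446, 458 and 447 CPM) and by 0.60 ± 0.04 without (257, 262 and 263 CPM, against 400, 391 and 396 CPM). Of the plakophilins, PKP1 fell by 0.43 ± 0.09 and 0.37 ± 0.09, and PKP3 rose by 0.28 ± 0.06 and 0.30 ± 0.06. DSP, desmoplakin, had 423, 190 and 409 CPM in deprived CGRP libraries, against 583, 513 and 513 CPM, and fell by 0.66 ± 0.22 (adjusted p = 0.016, 0.053 without replicate 1 of the high-glucose CGRP group). In control medium DSP had 373, 381 and 377 CPM without glucose, against 519, 520 and 510 CPM, which did not pass with all libraries (-0.45 ± 0.22, adjusted p = 0.081) although the libraries did not overlap, and passed at -0.48 without the 2 libraries that stand apart.

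Of the 5 regulators 2 rose and 2 fell in each arm. KLF4, a factor that drives barrier formation, rose. It stood at 66.3, 74.5 and 66.6 CPM in deprived CGRP libraries, against 23.2, 22.2 and 24.1 CPM in high glucose, and at 78.4, 76.5 and 75.7 CPM in deprived control libraries, against 28.2, 29.4 and 29.3 CPM. All deprived libraries lay above all high-glucose ones, and KLF4 rose by 1.58 ± 0.05 and 1.41 ± 0.05 (adjusted p = 4.2e-13 and 1.7e-12). SFN, or 14-3-3 sigma, a checkpoint protein of differentiating keratinocytes, fell by 0.52 ± 0.12 with CGRP (312, 457 and 315 CPM, against 492, 531 and 527 CPM) and by 0.88 ± 0.12 without (272, 260 and 274 CPM, against 495, 488 and 497 CPM). GRHL3, a factor of barrier formation and wound closure, fell by 0.79 ± 0.19 (2.26, 1.5 and 2.34 CPM, against 3.58, 3.31 and 3.72 CPM) and by 0.97 ± 0.18 (2.07, 2.45 and 2.14 CPM, against 4.24, 3.3 and 5.55 CPM). OVOL1, which restrains proliferation as cells leave the basal layer, rose by 0.36 ± 0.08 and 0.22 ± 0.08. The OVOL1 call in control medium was lost without replicate 1 or 3 of the deprived CGRP group, any deprived control library or replicate 1 or 2 of the high-glucose control (adjusted p 0.051 to 0.18), and with scaling by total counts (0.48). TP63 did not pass with all libraries, with differences of -0.07 ± 0.09 and 0.09 ± 0.09, and in control medium passed at 0.07 without the 2 libraries that stand apart. Endothelial marker counts moved along with these members: their 4 genes summed to 3.12 to 3.87 CPM in deprived CGRP libraries, against 42.3 to 43.9 CPM in high-glucose CGRP libraries, and to 1.79 to 2.63 CPM in deprived control libraries, against 24.3 to 25.2 CPM in high-glucose control libraries. Nearly all of it was CDH5, with PECAM1 and KDR at most 0.257 and 0.0643 CPM, and its part in the results was not tested. The fibroblast list summed to 10.9 to 16 CPM in deprived CGRP libraries, against 26.1 to 28.5 CPM in high-glucose CGRP libraries, and to 10.6 to 11.6 CPM in deprived control libraries, against 25.4 to 27 CPM in high-glucose control libraries, and this too was not tested. The leukocyte list, mostly CD14, summed to 0.195 to 0.501 CPM in deprived CGRP libraries, against 3.03 to 4.71 CPM in high-glucose CGRP libraries, and to 0.0344 to 0.0987 CPM in deprived control libraries, against 2.19 to 2.4 CPM in high-glucose control libraries. The neuron list summed to 23.1 to 31.9 CPM in deprived CGRP libraries, against 17.1 to 17.9 CPM in high-glucose CGRP libraries, and to 31.3 to 32.9 CPM in deprived control libraries, against 18 to 18.5 CPM in high-glucose control libraries. The Schwann cell list, at most 2.47 CPM, was lower in the deprived libraries of both arms without overlap, and the part of these lists in the results was not tested.

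**Figure D3:**
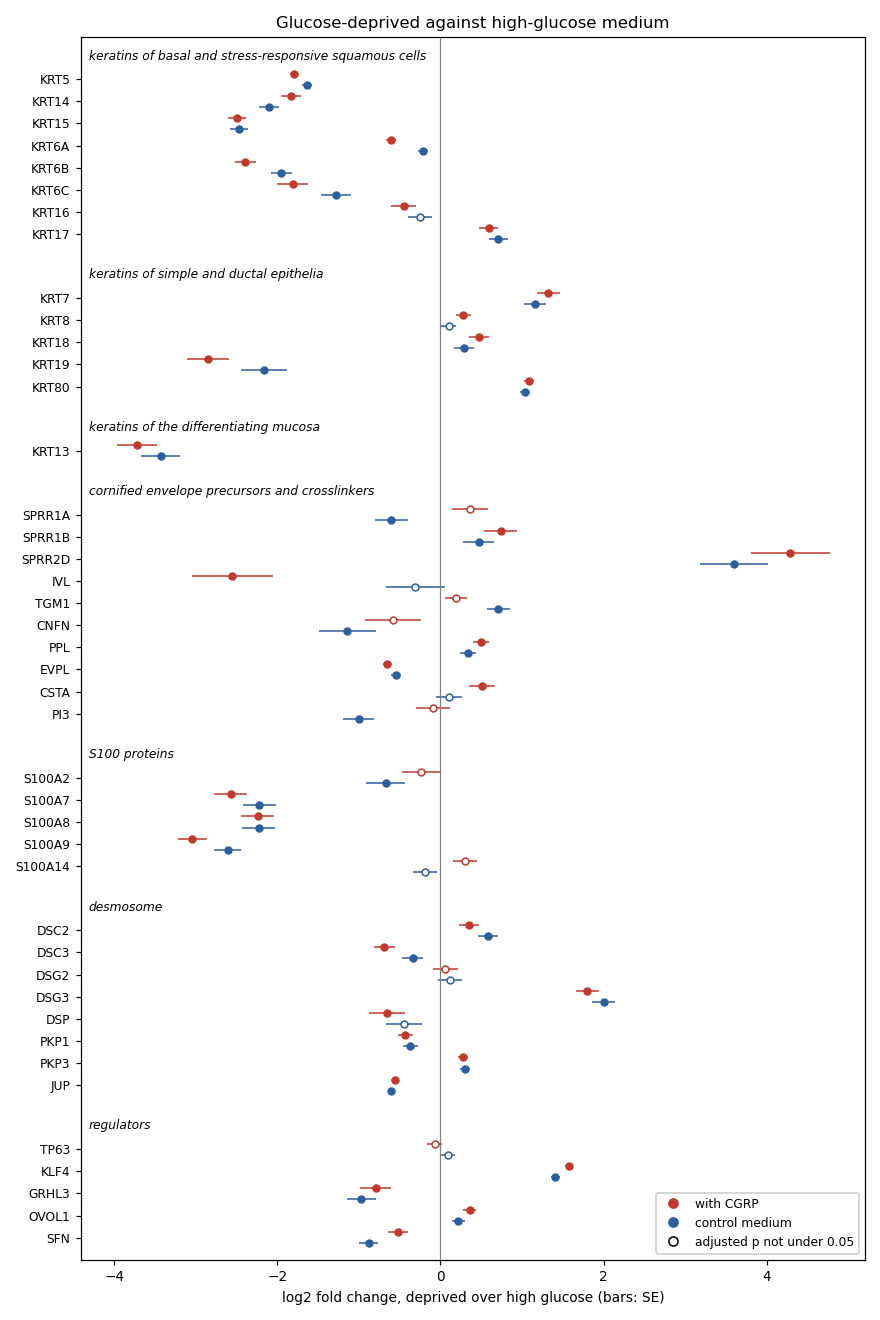
Log2 fold change of each tested member, deprived over high glucose, with its SE, in the CGRP arm (red, upper point) and the control arm (blue, lower point), ordered by role. Filled points passed an adjusted p of 0.05. KRT13 lies at -3.72 and -3.43 and DSG3 at 1.80 and 2.00.

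Inhibition of glycolysis with 2-DG moved fewer members than removal of glucose. In control medium 6 members rose and 5 fell with 2-DG against high glucose, 11 of 42 (26.2%), beside 13.8% of all genes (7.99% up and 5.85% down), with a median of -0.01 over the members and 0.01 over all genes. KLF4 had 36.6, 36.7 and 35.4 CPM with 2-DG, against 28.2, 29.4 and 29.3 CPM, and rose by 0.32 ± 0.05 (adjusted p = 7e-04). KRT80 had 191, 181 and 187 CPM, against 151, 150 and 152 CPM, and rose by 0.30 ± 0.06. Both had no overlap, as had OVOL1, which stood at 8.54, 9.92 and 9.29 CPM, against 6.67, 7.01 and 7.1 CPM, and rose by 0.42 ± 0.08. KRT7, at 50.4, 63.8 and 47 CPM with 2-DG and 38.9, 37.1 and 38.1 CPM in high glucose, rose by 0.50 ± 0.14 (adjusted p = 0.027), and was lost without replicate 2 of the 2-DG control or any high-glucose control library (0.068 to 0.13). SPRR1B, at 5.1, 7.25 and 4.84 CPM with 2-DG and 3.1, 4.16 and 3.6 CPM in high glucose, rose by 0.66 ± 0.18 (adjusted p = 0.025), and was lost without replicate 2 of the 2-DG control or replicate 1 or 3 of the high-glucose control (0.078 to 0.12). Summed with SPRR1A, the difference was 0.42 ± 0.17 (adjusted p = 0.12). PKP3 rose by 0.20 ± 0.06, a call that 15 of the 18 libraries could each end when left out, the exceptions being replicates 2 and 3 of the deprived CGRP group and replicate 1 of the 2-DG control (0.054 to 0.21).

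The falls with 2-DG in control medium were led by regulators. GRHL3 had 2.61, 2.19 and 2.17 CPM with 2-DG, against 4.24, 3.3 and 5.55 CPM in high glucose, and fell by 0.90 ± 0.18 (adjusted p = 0.0028). TP63, the master factor of squamous cells, had 408, 333 and 390 CPM, against 550, 565 and 548 CPM, and fell by 0.56 ± 0.09 (adjusted p = 0.00074). JUP had 328, 326 and 313 CPM, against 400, 391 and 396 CPM, and fell by 0.30 ± 0.04 (adjusted p = 0.00012). None of these 3 overlapped. S100A7 had 4.73, 6.39 and 4.64 CPM with 2-DG, against 7.94, 6.22 and 8.84 CPM, and fell by 0.55 ± 0.17, with overlapping libraries. That call was lost without any 1 of 13 libraries, the exceptions being replicates 2 and 3 of the deprived CGRP group, replicate 1 of the 2-DG CGRP group, replicate 2 of the 2-DG control and replicate 2 of the high-glucose control (0.05 to 0.2). KRT6C fell by 0.52 ± 0.16, was lost without the 2 libraries that stand apart (0.066) or without any 1 of 8 libraries (replicate 1 of the 2-DG CGRP and high-glucose CGRP groups, 3 of the deprived control, 2 and 3 of the 2-DG control and all 3 of the high-glucose control, 0.054 to 0.16), and as a sum of the 3 KRT6 genes differed by 0.02 ± 0.06. The count of 11 was 6 without replicate 1 or replicate 3 of the high-glucose control. Without the 2 libraries that stand apart it was 21, 10 up and 11 down, beside 32.5% of all genes. In the same comparison the fibroblast list summed to 17.9 to 19.7 CPM with 2-DG, against 25.4 to 27 CPM in high glucose, the neuron list to 12.4 to 16.3 CPM, against 18 to 18.5 CPM, and the leukocyte list to 1.85 to 2.11 CPM, against 2.19 to 2.4 CPM, and their part was not tested.

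In the CGRP arm 1 member of 42 (2.38%), JUP, passed with 2-DG against high glucose, beside 2.39% of all genes (0.870% down). DESeq2 called 4, and 8 had an unadjusted p under 0.05. JUP had 377, 377 and 373 CPM with 2-DG and CGRP, against 446, 458 and 447 CPM in high glucose with CGRP, and fell by 0.26 ± 0.04 (adjusted p = 0.0026). TP63 had 371, 404 and 381 CPM, against 476, 450 and 465 CPM, a difference of -0.27 ± 0.09 (adjusted p = 0.17) that passed at -0.28 without the 2 libraries that stand apart, and KLF4 had 26.3, 24.5 and 24.9 CPM, against 23.2, 22.2 and 24.1 CPM (0.12 ± 0.05, adjusted p = 0.31). S100A8 had 9.93, 10.2 and 9.47 CPM, against 14.3, 14.1 and 17.8 CPM, and S100A9 85.2, 65.7 and 80.3 CPM, against 110, 104 and 124 CPM, each without overlap, at -0.64 ± 0.18 and -0.54 ± 0.16 (adjusted p = 0.075 and 0.095). Without the 2 libraries that stand apart 16 members passed, 4 up and 12 down, among them S100A7 at -0.68, S100A8 at -0.65 and S100A9 at -0.55, and 19.5% of all genes passed. The count of 1 was 6 without replicate 2 of the deprived CGRP group and 2 without replicate 3 of that group, replicate 2 of the 2-DG control or replicate 2 of the high-glucose control.

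Set against the deprived control, the 2-DG control showed 18 members up and 10 down, 28 of 42 (66.7%), beside 57.5% of all genes (28.9% up and 28.6% down), and 34, 20 up and 14 down, beside 66.8% of all genes, without the 2 libraries that stand apart. The 2-DG and deprived comparisons share the libraries named in each, so they are given side by side. KRT13 stood at 2.95, 3.73 and 3.29 CPM with 2-DG, against 0.428, 0.31 and 0.306 CPM in deprived control libraries, and was higher by 3.23 ± 0.24. KRT15 stood at 123, 155 and 123 CPM, against 32.5, 25.1 and 27.6 CPM (2.23 ± 0.11), and KRT14 at 138, 182 and 141 CPM, against 46.1, 42 and 46.1 CPM (1.78 ± 0.12). The same holds for KRT5, at 2080, 2400 and 2110 CPM, against 710, 645 and 660 CPM (1.71 ± 0.06). S100A9 stood at 54.3, 62.2 and 58.6 CPM, against 16.1, 10.2 and 13.7 CPM (2.13 ± 0.17), and S100A8 at 9.34, 13 and 11.5 CPM, against 3.16, 3.03 and 2.72 CPM (1.92 ± 0.21). In the other direction DSG3 stood at 61.2, 46.1 and 60.2 CPM, against 221, 226 and 227 CPM (-2.01 ± 0.14), and KLF4 at 36.6, 36.7 and 35.4 CPM, against 78.4, 76.5 and 75.7 CPM (-1.08 ± 0.05). TGM1 stood at 1.81, 1.57 and 1.88 CPM, against 3.62, 2.89 and 3.64 CPM (-0.94 ± 0.15). KRT17 stood at 592, 783 and 594 CPM, against 1150, 1100 and 1160 CPM (-0.79 ± 0.12), and KRT80 at 191, 181 and 187 CPM, against 306, 312 and 315 CPM (-0.74 ± 0.06). None of these 11 genes overlapped between the 2 groups, and their adjusted p ranged up to 3.5e-05.

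CGRP against control moved fewer members in each medium than deprivation did, and the largest falls that passed in high-glucose and 2-DG medium were those of SPRR1A and PI3. In high glucose 3 members rose and 3 fell, 6 of 42 (14.3%), beside 4.33% of all genes (2.04% up and 2.29% down). In deprived medium 4 rose and 4 fell, 8 of 42 (19.0%), beside 13.0% of all genes (6.38% up and 6.58% down). In 2-DG medium 4 rose and 7 fell, 11 of 42 (26.2%), beside 12.2% of all genes (5.31% up and 6.89% down). The median log2 fold change of the tested members was 0.03 in high glucose, -0.04 without glucose and 0.01 with 2-DG, against -0.01, 0.01 and -0.01 for all tested genes. The endothelial list, nearly all CDH5, was higher with CGRP in high glucose (42.3 to 43.9 CPM, against 24.3 to 25.2 CPM in control medium), with 2-DG (39.4 to 43.6 CPM, against 21.2 to 25.1 CPM) and without glucose (3.12 to 3.87 CPM, against 1.79 to 2.63 CPM). The leukocyte list, mostly CD14, was higher with CGRP as well, in high glucose (3.03 to 4.71 CPM, against 2.19 to 2.4 CPM), with 2-DG (3.19 to 4.34 CPM, against 1.85 to 2.11 CPM) and without glucose (0.195 to 0.501 CPM, against 0.0344 to 0.0987 CPM). In the 2-DG CGRP group PTPRC and CD3E also had means of 0.641 and 0.22 CPM beside 2.8 CPM of CD14. In the 2-DG control PTPRC and CD3E had 0.011 and 0.0114 CPM. The fibroblast list was higher with CGRP in 2-DG medium (24.3 to 25.4 CPM, against 17.9 to 19.7 CPM), and the neuron list was lower with CGRP in high glucose (17.1 to 17.9 CPM, against 18 to 18.5 CPM). The part of these lists in the results was not tested.

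SPRR1A, a small proline-rich envelope precursor, had 1.25, 1.59 and 1.49 CPM with CGRP, against 3, 4.03 and 3.13 CPM in control medium, in high glucose. With 2-DG it had 1.11, 1.22 and 1.28 CPM with CGRP, against 2.95, 4.45 and 3.56 CPM in control medium. In both media all 3 CGRP libraries lay below all 3 control libraries, and SPRR1A fell by 1.23 ± 0.20 (adjusted p = 0.002) and by 1.59 ± 0.21 (adjusted p = 0.00011), 2.34-fold and 3.01-fold lower. Without glucose it had 1.24, 2.46 and 1.92 CPM with CGRP, against 2.17, 2.31 and 2.24 CPM in control medium, which overlapped and did not pass (-0.26 ± 0.21, adjusted p = 0.44). SPRR1B, the paralog with 2 AP-1 matches in its start window, had 3.05, 2.25 and 2.7 CPM with CGRP and 2-DG, against 5.1, 7.25 and 4.84 CPM with 2-DG in control medium, and fell by 1.10 ± 0.19 (adjusted p = 0.0011). In high glucose SPRR1B had 2.54, 2.5 and 2.26 CPM with CGRP, against 3.1, 4.16 and 3.6 CPM, and differed by -0.57 ± 0.20 (adjusted p = 0.14). In deprived medium it had 3.18, 4.81 and 4.19 CPM with CGRP, against 5.99, 4.2 and 4.89 CPM (-0.31 ± 0.19, adjusted p = 0.29). SPRR1B fell by 0.57 in high glucose (adjusted p = 0.0044) and by 0.44 without glucose (adjusted p = 0.021) when the 2 libraries that stand apart were left out. Their summed counts fell with CGRP by 0.85 ± 0.18 in high glucose (adjusted p = 0.011) and by 1.27 ± 0.18 with 2-DG (adjusted p = 1.6e-04), and differed by -0.30 ± 0.17 without glucose (adjusted p = 0.29). The summed SPRR2 genes fell with 2-DG by 1.54 ± 0.34 (adjusted p = 0.0066).

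PI3 had 2.81, 2.56 and 3.02 CPM with CGRP, against 5.4, 5.78 and 4.98 CPM in control medium, in high glucose. With 2-DG it had 4.03, 3.38 and 3.42 CPM with CGRP, against 6.85, 8.93 and 7.68 CPM. It fell by 0.94 ± 0.19 (adjusted p = 0.0079) and 1.11 ± 0.18 (adjusted p = 0.00065), with no overlap in either medium. Without glucose PI3 had 2.15, 3.89 and 1.92 CPM with CGRP, against 2.34, 2.79 and 2.96 CPM, and differed by -0.04 ± 0.21 (adjusted p = 0.93). KLF4 had 23.2, 22.2 and 24.1 CPM with CGRP, against 28.2, 29.4 and 29.3 CPM, in high glucose, and 26.3, 24.5 and 24.9 CPM, against 36.6, 36.7 and 35.4 CPM, with 2-DG. It fell by 0.32 ± 0.05 (adjusted p = 0.0021) and by 0.52 ± 0.05 (adjusted p = 1e-05). In deprived medium KLF4 had 66.3, 74.5 and 66.6 CPM with CGRP, against 78.4, 76.5 and 75.7 CPM, and did not pass (-0.15 ± 0.05, adjusted p = 0.066), but passed at -0.20 without the 2 libraries that stand apart. These calls in high glucose and 2-DG medium, and that of SPRR1B with 2-DG, were kept when any 1 of the 18 libraries was left out.

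With 2-DG, 2 of the 5 keratins tested in the simple and ductal list, which includes KRT80, fell with CGRP and 1 rose. KRT7 had 36.5, 32.9 and 31.5 CPM with CGRP, against 50.4, 63.8 and 47 CPM in control medium, and fell by 0.68 ± 0.14 (adjusted p = 0.0045). KRT80 had 132, 131 and 136 CPM, against 191, 181 and 187 CPM, and fell by 0.49 ± 0.06 (adjusted p = 3.1e-05). Both were without overlap. In high glucose they differed by -0.06 ± 0.14 and -0.16 ± 0.06 and in deprived medium by 0.10 ± 0.14 and -0.11 ± 0.06, none past the threshold with all libraries. When the 2 libraries that stand apart were left out, KRT80 fell by 0.16 in high glucose (adjusted p = 9.9e-05), and KRT7 turned direction in deprived medium and fell by 0.13 (adjusted p = 0.02). OVOL1 had 7.32, 8.01 and 7.43 CPM with CGRP, against 8.54, 9.92 and 9.29 CPM, and fell by 0.28 ± 0.08 (adjusted p = 0.03), a call lost without replicate 1 or 3 of the 2-DG CGRP group or replicate 2 or 3 of the 2-DG control (0.077 to 0.13), and without the 2 libraries that stand apart (0.051). KLF4, KRT7, KRT80, OVOL1 and SPRR1B, lower with CGRP here, were the members that 2-DG raised in control medium together with PKP3, and both comparisons use the same 3 libraries of the 2-DG control. KRT19 rose with 2-DG by 0.80 ± 0.22 at 1.04 to 2.12 CPM (adjusted p = 0.023), which was lost without replicate 1 or 2 of the 2-DG CGRP group or of the 2-DG control (0.057 to 0.084). KRT6C rose by 0.71 ± 0.16, but the 3 KRT6 genes summed differed by -0.06 ± 0.06.

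With all libraries, JUP was the 1 member that rose with CGRP in all 3 media, and without the 2 libraries that stand apart PPL did so too, by 0.17 in high glucose (adjusted p = 9.9e-05), 0.48 without glucose (1.3e-13) and 0.17 with 2-DG (0.00025). JUP had 446, 458 and 447 CPM with CGRP, against 400, 391 and 396 CPM in control medium, in high glucose. With 2-DG it had 377, 377 and 373 CPM with CGRP, against 328, 326 and 313 CPM, and without glucose 303, 310 and 306 CPM with CGRP, against 257, 262 and 263 CPM. The CGRP and control libraries did not overlap in any medium, and JUP rose by 0.19 ± 0.04, 0.22 ± 0.04 and 0.23 ± 0.04 (adjusted p = 0.013 in high glucose, 0.0016 with 2-DG and 0.0013 without glucose). In high glucose the call was lost without replicate 2 or 3 of either group (0.051 to 0.08) and with no filter on low counts (0.19), and in deprived medium in a fit of those 6 libraries alone (0.16). The basal keratin KRT15 had 198, 209 and 215 CPM with CGRP, against 164, 141 and 168 CPM, in high glucose, and 36.7, 39.8 and 34.4 CPM, against 32.5, 25.1 and 27.6 CPM, without glucose. It rose by 0.39 ± 0.10 (adjusted p = 0.038) and 0.38 ± 0.11 (adjusted p = 0.03), and with 2-DG had 177, 158 and 162 CPM, against 123, 155 and 123 CPM (0.31 ± 0.10, adjusted p = 0.061, and 0.0039 without the 2 libraries that stand apart). In high glucose the KRT15 call was lost without any 1 of 9 libraries, the 6 of the groups compared, replicates 2 and 3 of the 2-DG CGRP group and replicate 3 of the deprived control (0.052 to 0.21). In deprived medium it was lost without replicate 2 of the CGRP group or 2 or 3 of the control (0.077 to 0.13), and without the 2 libraries that stand apart (0.068). The replicate block ended the high-glucose call as well (0.053).

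TGM1 had 3.4, 2.66 and 2.93 CPM with CGRP, against 1.9, 1.9 and 2.39 CPM, in high glucose, and 2.85, 2.15 and 2.53 CPM, against 1.81, 1.57 and 1.88 CPM, with 2-DG. It rose by 0.54 ± 0.14 (adjusted p = 0.044) and 0.51 ± 0.15 (adjusted p = 0.035) without overlap, while SPRR1A, one of its substrates, fell in the same libraries. The high-glucose call was lost without any 1 of 10 libraries (all 3 high-glucose CGRP, replicates 1 and 2 of the high-glucose control, 3 of the 2-DG CGRP group and 1 and 3 of the deprived and the 2-DG control, 0.054 to 0.22). With 2-DG it was lost without replicate 1 or 3 of the CGRP group or any control library (0.058 to 0.15), and without the 2 libraries that stand apart (0.056). Without glucose TGM1 had 3.25, 3.31 and 3.7 CPM with CGRP, against 3.62, 2.89 and 3.64 CPM, and differed by 0.02 ± 0.14.

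In deprived medium CGRP was accompanied by lower wound keratin and TP63. KRT6A had 123, 108 and 124 CPM with CGRP, against 174, 162 and 169 CPM in control medium, and fell by 0.51 ± 0.06 (adjusted p = 3.7e-05). TP63 had 483, 361 and 479 CPM, against 580, 589 and 603 CPM, and fell by 0.42 ± 0.09 (adjusted p = 0.0073). All 3 CGRP libraries were below all 3 control libraries for both genes, and a fit of these 6 libraries alone ended both calls (0.065 for KRT6A and 0.21 for TP63). KRT6B had 11.5, 8.36 and 12.1 CPM, against 16.7, 12 and 15.1 CPM, and fell by 0.45 ± 0.13 with overlapping libraries, a call lost without replicate 2 of the CGRP group or 1 or 3 of the control (0.11 to 0.18), and without the 2 libraries that stand apart (0.077). IVL fell by 2.18 ± 0.53 (adjusted p = 0.013) on 2, 2 and 1 counts with CGRP, against 7, 8 and 10 counts, and was lost without replicate 3 of either group (0.051 and 0.052). SFN had 312, 457 and 315 CPM, against 272, 260 and 274 CPM, and rose by 0.43 ± 0.12 (adjusted p = 0.029), which was lost without replicate 2 of the CGRP group or any control library (0.062 to 0.098). PPL had 349, 251 and 349 CPM, against 247, 257 and 254 CPM, and rose by 0.33 ± 0.10, although its replicate 2 with CGRP lay among the control libraries, and the call was lost without any 1 of the other 5 libraries (0.072 to 0.1). A fit of the 6 deprived libraries alone left 0 members called at an adjusted p of 0.05, while the fit of all libraries had 15 at an unadjusted p under 0.05 and DESeq2 called 9. TP63 was not lower with CGRP in deprived medium only. In high glucose it had 476, 450 and 465 CPM with CGRP, against 550, 565 and 548 CPM, without overlap, but did not pass with all libraries. Without the 2 libraries that stand apart, TP63 fell by 0.25 in high glucose (adjusted p = 9.8e-09) and by 0.29 without glucose (5.4e-09).

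None of the 4 desmosomal cadherins, nor S100A8 or S100A9, passed with CGRP in any medium with all libraries. DSG3 differed by 0.13 ± 0.14 in high glucose, -0.07 ± 0.13 without glucose and 0.13 ± 0.14 with 2-DG, and S100A9 by 0.47 ± 0.16, 0.03 ± 0.18 and 0.40 ± 0.16. KRT5 and KRT14 also did not pass with all libraries, with differences for KRT14 of -0.13 ± 0.11 in high glucose and 0.14 ± 0.12 without glucose. Several of these passed without the 2 libraries that stand apart. There KRT5 rose by 0.12 in high glucose (adjusted p = 0.00098) and by 0.10 with 2-DG (0.013), and KRT14 fell by 0.13 in high glucose (0.019) and rose by 0.14 with 2-DG (0.02). Of the cadherins, DSG3 rose by 0.14 in high glucose and by 0.13 without glucose, DSC2 by 0.26 and 0.17 in the same media, DSC3 by 0.11 in high glucose and DSG2 by 0.18 without glucose. S100A9 rose by 0.47 in high glucose. In that fit the members called with CGRP were 22 in high glucose (13 up, 9 down, beside 19.1% of all genes), 19 without glucose (10 up, 9 down, 28.7%) and 18 with 2-DG (10 up, 8 down, 28.4%). The count in high glucose was 3 without replicate 2 or 3 of the high-glucose CGRP group or replicate 2 of the high-glucose control, and 11 without replicate 2 of the deprived CGRP group. That in deprived medium was 5, 5 and 3 without replicate 1, 2 and 3 of the deprived control.

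**Figure D4:**
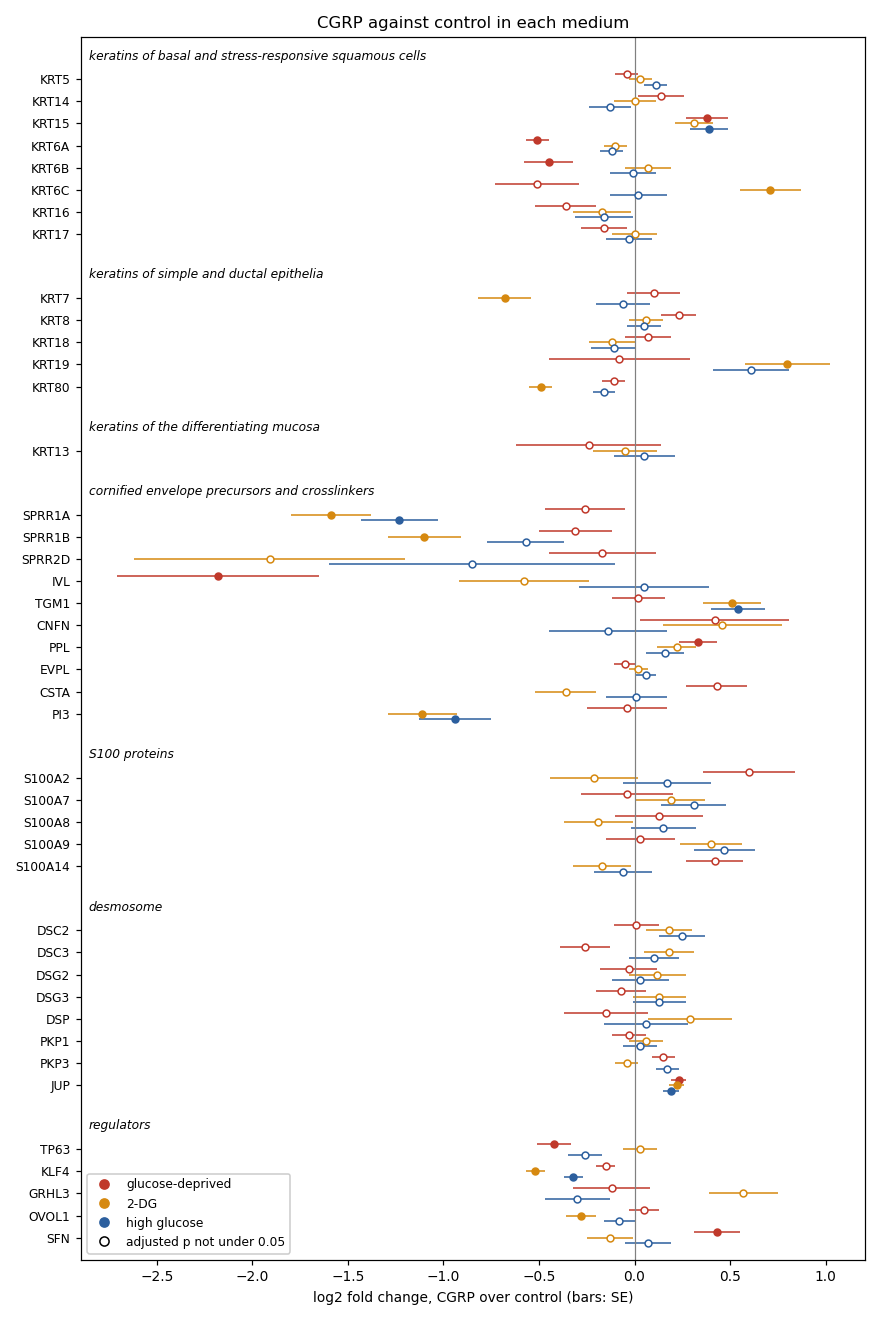
Log2 fold change of each tested member, CGRP over control, with its SE, in glucose-deprived (red, upper), 2-DG (orange, middle) and high-glucose medium (blue, lower), ordered by role. Filled points passed an adjusted p of 0.05. SPRR1A lies at -1.59 with 2-DG and -1.23 in high glucose, and JUP is filled and right of 0 in all 3 media.

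The effect of CGRP was also compared between media. Between deprived and high-glucose medium 1 member of 42 (2.38%), KRT6A, passed, beside 1.55% of all genes (0.650% down), with a difference of effects of -0.39 ± 0.08 (adjusted p = 0.022). KRT6A differed with CGRP by -0.51 ± 0.06 without glucose and by -0.12 ± 0.06 in high glucose (177, 186 and 178 CPM, against 190, 200 and 196 CPM). The summed KRT6 genes gave a difference of -0.41 ± 0.09 (adjusted p = 0.023). The call was lost without any 1 of 7 libraries, all 3 of the high-glucose CGRP group, replicates 1 and 3 of the deprived control and replicates 1 and 3 of the high-glucose control (0.051 to 0.077), while 2 members passed without replicate 1 or 2 of the deprived CGRP group. SPRR1A, which fell with CGRP in high glucose and not without glucose, gave a difference of effects of 0.96 ± 0.30 (adjusted p = 0.14), so its 2 responses were not shown to differ. PI3 gave 0.91 ± 0.28 (adjusted p = 0.14). Between 2-DG and high-glucose medium no member passed in edgeR, beside 0.391% of all genes, with 7 members at an unadjusted p under 0.05 and 1 called by DESeq2. KRT7 gave a difference of effects of -0.62 ± 0.20 (adjusted p = 0.27) and KRT80 of -0.33 ± 0.08 (adjusted p = 0.11). Without the 2 libraries that stand apart, 9 members passed between deprived and high glucose (13.5% of all genes) and 6 between 2-DG and high glucose (5.91%), with KRT7 at -0.48 and KRT80 at -0.35.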

How the data were processed

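RNA of Cal27 cells was sequenced in 18 libraries, 3 in each of 6 groups. The authors deposited 1 table of raw read counts per Ensembl gene ID, whole numbers with no normalization. HISAT2 2.0.4 and the builds hg19 and GRCh38 are named in the submitters' processing notes, and the counting tool, annotation and strand setting are unstated in the sources used here. Symbols came from a table of gene names, which held 60370 of the 60683 IDs. Arms were read from the series text and the library titles.

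Genes were kept by filterByExpr (minimum count 10, minimum total 15), leaving 18159. edgeR 4.0.16 in R 4.3.3 fitted 1 coefficient per group to all 18 libraries with TMM scaling and the robust quasi-likelihood F test, and the Benjamini-Hochberg adjustment ran over every gene tested, with a threshold of 0.05. CPM are counts per TMM-scaled total, and levels per kilobase use the GENCODE 29 principal transcript. DESeq2 1.42.0 and other scalings, filters, library sets, the replicate block and summed paralogs were tried, and an offset for exon length was added after the data were seen. The scripts were tested on simulated data.

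Any member could be named. Values in every library are given for the 5 largest rises and falls per comparison among called members whose average log2 CPM was 1 or more and whose groups did not overlap, and for the most abundant member of each role. Other lists are named by their 2 largest changes each way. Members, lists and the alternative without 2 libraries were chosen with earlier results of these data known. The repetitions are independent according to the series text.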

Additional observations from a re-analysis of the deposited data

Results flagged for a closer look

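The effect of CGRP differed between glucose-deprived and high-glucose medium, by a test of the difference itself (edgeR's quasi-likelihood test with Benjamini-Hochberg adjustment over all genes), for 1 member and for 2 genes of the other differentiation lists. For KRT6A the difference of effects was -0.39 ± 0.08 (SE, adjusted p = 0.022), with CGRP effects of -0.51 ± 0.06 without glucose and -0.12 ± 0.06 in high glucose. For LYPD3, a surface protein of suprabasal keratinocytes, it was 0.48 ± 0.09 (adjusted p = 0.0095), with effects of 0.64 ± 0.07 without glucose and 0.16 ± 0.06 in high glucose. For ELF3, an epithelial transcription factor, it was 0.35 ± 0.08 (adjusted p = 0.034), with effects of 0.94 ± 0.06 and 0.59 ± 0.06 in the same order of media. The KRT6A call was lost with scaling by total counts (0.065), with no filter on low counts (0.072) and in a fit of the groups compared alone (0.075). It was also lost without any 1 of 7 libraries (0.051 to 0.077). LYPD3 and ELF3 were not examined under the alternatives. No explanation was tested.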

How the results depend on the processing

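For the members called in a comparison, 3734 values were computed under an alternative, and 3516 kept their direction and their side of the threshold, 215 kept the direction and lost the call, and 3 reversed. Members that passed only under an alternative are not among these values and are covered by the counts of members called. Losses under other scalings, filters or DESeq2 are named above for some calls only. The reversals came with paralogs summed, where KRT6C read -0.06 for CGRP in 2-DG medium and 0.02 for 2-DG against high glucose in control medium, and SPRR1A read 0.05 for deprivation in control medium. Without the 2 libraries that stand apart, the members called were 22, 19 and 18 for CGRP in high-glucose, deprived and 2-DG medium, 21 and 16 for 2-DG against high glucose in control and CGRP medium, and 9 and 6 for the difference of CGRP effects between deprived or 2-DG and high-glucose medium. With only the libraries of the groups compared, they were 20 for CGRP in high glucose, 0 for CGRP in deprived medium, 12 for 2-DG against high glucose with CGRP, and 0 and 1 for the differences of effects. For 2-DG against high glucose with CGRP, the count of 1 was 3 with scaling by total counts, 2 with no filter, 2 with a stricter filter, 4 with DESeq2 and 4 with an offset for exon length. For the difference of effects between deprived and high-glucose medium, the count of 1 was 0 with total counts, 0 with no filter and 2 with DESeq2, and between 2-DG and high glucose DESeq2 called 1. Leaving out 1 library gave 3 to 11 for CGRP in high glucose, 3 to 11 for CGRP in deprived medium, 8 to 16 for CGRP in 2-DG medium, 6 to 14 and 1 to 6 for 2-DG against high glucose in control and CGRP medium, and 0 to 2 for each difference of effects. The cause of these changes was not tested.

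Same-numbered libraries were not treated as pairs. Their deviations from the mean of 3 libraries correlated between -0.48 and 0.48, with at most 2 of 3 pairs over 0.1 in a comparison. Differently numbered libraries gave -0.51 to 0.52, as wide a range, so these values cannot show whether libraries were paired. With the replicate block, the members called were 5, 8 and 12 for CGRP in high-glucose, deprived and 2-DG medium, 34 for deprivation in each arm, and 2 for the difference of effects between deprived and high-glucose medium. With 3 libraries a group, members at a few counts, such as IVL and SPRR2D, are limited by depth.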

Other observations

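Other genes of keratinocyte differentiation, 62 tested of 91, moved beside the members. Of 6 tested kallikreins, proteases that cut desmosomes as cells are shed, 3 rose with CGRP in high glucose, 5 without glucose and 3 with 2-DG, and 0 fell in any of the 3 media, beside 2.04%, 6.38% and 5.31% of all genes that rose. KLK7 rose by 1.01 ± 0.15 and S100A4 by 1.43 ± 0.18 with CGRP without glucose, where the transcription factors PRDM1 and ETS1 fell by 0.64 ± 0.18 and 0.59 ± 0.13. Replicate 2 of the deprived CGRP group, which stands apart, was the lowest of its group for PRDM1 (2.68, 1.42 and 2.57 CPM) and ETS1 (18.2, 10.9 and 16.3 CPM). For S100A4 it was the highest (5.15, 6.7 and 4.48 CPM). Changes of these genes without that library were not examined. The serpins SERPINB3 and SERPINB4, protease inhibitors of squamous cells, rose by 0.97 ± 0.15 and 0.98 ± 0.19 with CGRP in high glucose and by 1.22 ± 0.15 and 1.13 ± 0.20 with 2-DG. SPRR2E, an envelope precursor, fell by 1.64 ± 0.41 with CGRP and 2-DG, at low means of 0.213 CPM, against 0.669 CPM in the 2-DG control.

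With deprivation 45 of the 62 were called with CGRP, 17 up and 28 down, beside 60.4% of all genes (31.9% up and 28.5% down). In control medium 39 of the 62 were called, 12 up and 27 down. That share is near the 60.6% of all genes called there (31.0% up and 29.6% down). SERPINB3 fell by 4.70 ± 0.21 and SERPINB4 by 4.63 ± 0.28 with CGRP. SOX2, a squamous lineage factor, fell by 3.60 ± 0.15 and SERPINB4 by 3.36 ± 0.29 in control medium. SCEL, sciellin of the envelope, rose by 3.69 ± 0.13 with CGRP and 3.66 ± 0.13 without. With 2-DG, ELF3 fell by 0.65 ± 0.06 with CGRP and by 0.84 ± 0.06 in control medium against high glucose.

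Over the means of the 6 groups, the tested genes whose profile was most like the mean profile of SPRR1A, SPRR1B, SPRR2D and IVL (each scaled over the groups, 4 members) were SOWAHC (r = 0.992), RAB6C (0.984), EN2 (0.984), ELOA (0.984) and DNAH14 (0.982), given as a description over 6 points. The 4 averaged members did not share a profile. With deprivation under CGRP, SPRR2D rose by 4.29 and SPRR1B by 0.74, while IVL fell by 2.55.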
